A study of Rattus norvegicus with 8 samples.

Results

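Plasminogen activators, their cell-surface receptor, matrix metalloproteinases (MMPs) and tissue inhibitors of metalloproteinases (TIMPs) were measured in freshly isolated rat alveolar epithelial type II (ATII) cells, which make lung surfactant. The set held 10 genes of the 18166 genes measured: the proteases Plau, Plat, Mmp2, Mmp7, Mmp9 and Mmp14, the receptor Plaur, and the inhibitors Timp1, Timp2 and Timp3. They were found by gene symbol in the array's platform annotation, and each had 1 probe set. In one group, cells received AdHIF1a, an adenovirus for a HIF1a mutant that stays active in the presence of oxygen. In the other group, cells received AdGFP, an adenovirus for green fluorescent protein. Each virus was given to 1 well of cells from each of 4 male Sprague Dawley rats, so that the 8 arrays form 4 pairs and every difference was taken within a rat. All wells were exposed to virus for 3 h at a multiplicity of infection of 20, were plated on a gel of 80% collagen and 20% Matrigel, and gave RNA 24 h later. The medium held 2% fetal bovine serum during exposure and 5% rat serum after plating. The sources used here do not name the promoter that drives each transgene.

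The plasminogen system turns the circulating zymogen plasminogen into plasmin, a broad serine protease that dissolves fibrin and cleaves matrix proteins. Urokinase (Plau) does this mainly at the cell surface, bound to its receptor Plaur, and tissue plasminogen activator (Plat) mainly on fibrin. Plasmin can in turn activate MMP precursors, and MMPs are held in check by TIMPs, which bind their catalytic site. In the lung these enzymes act in clearance of alveolar fibrin, in turnover of the basement membrane and in epithelial repair.

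Of the 10 genes, Plau, Timp2 and Timp3 fell and Timp1 rose in the AdHIF1a wells. Urokinase RNA was 2.35-fold lower, Timp3 1.98-fold lower and Timp2 1.79-fold lower, while Timp1 was 1.51-fold higher. The other 5 proteases and the urokinase receptor did not pass the test. A gene was called at an adjusted p under 0.05 in limma over all genes. By that rule 1 of 10 members was higher, against 5.68% of all genes, and 3 of 10 were lower, against 7.77% of all genes. The same 4 genes had AdHIF1a and AdGFP values that did not overlap, as had 10.3% of all genes in the higher and 12.2% in the lower direction. The median difference over the 10 genes was -0.20 log2 units, beside a median of -0.005 over all genes.

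The 4 called genes are the ones whose start regions are shown here. RefSeq windows of 300 bases in build GRCr8, reaching from 250 bases before to 50 after the annotated start, were matched for 6 of the 10 genes. Capitals mark the core letters of the hypoxia response element, ACGTG or GCGTG on either strand, and the sequences read 5′ to 3′ on the gene's strand. The windows are chr15:3511938-3512237 for Plau, chrX:3771073-3771372 for Timp1, chr10:104089165-104089464 for Timp2 and chr7:19459509-19459808 for Timp3, all on the minus strand.
Plau: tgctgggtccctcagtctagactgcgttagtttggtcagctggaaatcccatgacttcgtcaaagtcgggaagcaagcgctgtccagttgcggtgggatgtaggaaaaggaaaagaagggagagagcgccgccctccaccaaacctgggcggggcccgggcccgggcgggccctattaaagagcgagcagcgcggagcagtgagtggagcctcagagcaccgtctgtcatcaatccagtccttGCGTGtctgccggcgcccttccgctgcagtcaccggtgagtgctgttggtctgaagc
Timp1: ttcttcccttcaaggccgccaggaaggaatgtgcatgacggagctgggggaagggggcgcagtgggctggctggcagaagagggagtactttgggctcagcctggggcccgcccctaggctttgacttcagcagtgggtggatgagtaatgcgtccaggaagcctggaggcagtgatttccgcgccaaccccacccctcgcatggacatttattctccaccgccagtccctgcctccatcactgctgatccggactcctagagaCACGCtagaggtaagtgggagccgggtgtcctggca
Timp2: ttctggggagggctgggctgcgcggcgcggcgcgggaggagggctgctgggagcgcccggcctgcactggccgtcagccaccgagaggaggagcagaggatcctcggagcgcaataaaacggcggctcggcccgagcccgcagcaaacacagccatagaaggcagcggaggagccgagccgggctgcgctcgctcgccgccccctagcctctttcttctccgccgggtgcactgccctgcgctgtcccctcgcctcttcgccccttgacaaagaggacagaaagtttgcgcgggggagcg
Timp3: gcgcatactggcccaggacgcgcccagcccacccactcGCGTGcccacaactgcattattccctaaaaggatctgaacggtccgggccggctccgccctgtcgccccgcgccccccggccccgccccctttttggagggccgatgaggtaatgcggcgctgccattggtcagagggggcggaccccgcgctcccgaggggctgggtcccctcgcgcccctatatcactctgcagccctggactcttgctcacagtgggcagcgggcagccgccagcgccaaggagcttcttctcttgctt
The Plau window held 1 core with its first base at -7, the Timp3 window 1 at -212 and the Timp1 window 1 on the opposite strand at 15, counted from the start as 1. The Timp2 window held 0, as did those of Plaur and Mmp7. Across all 33469 windows of the same length 41.6% held this core, so that 3 of 6 is near the background. The AP-1 motif, TGACTCA or TGAGTCA, which is shared by many protease genes, was in the Plaur and Mmp7 windows and in 4.63% of all windows, and in 0 of the 4 printed. The GC box GGGCGG, searched on both strands, occurred 3 times each in the Plau and Timp3 windows and once each in the Timp1 and Timp2 windows, and 33.1% of all windows held it. These matches describe letters only; no binding was measured.

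Among the whole arrays, Hif1a on its rat probe set averaged 10.64 ± 0.12 in AdHIF1a wells and 11.12 ± 0.13 in AdGFP wells (log2 signal, SD, 4 rats each). The species of the transgene is not given, so this does not check the well labels. All 9 measured genes of a reference list of HIF targets rose, Vegfa by 1.52 ± 0.15 and Egln3, a HIF prolyl hydroxylase, by 2.12 ± 0.17 (log2 units, moderated standard error, SE). Of 9 markers of ATII cells 0 averaged below the median of all probe sets (5.09), and they moved both ways, with 2 higher, 3 lower and a median difference of -0.39. Sftpc, a surfactant protein gene, averaged 12.62 in AdHIF1a and 12.34 in AdGFP wells and was not called, Sftpa1 and Sftpb rose by 0.89 and 0.69, and Napsa, Lpcat1 and Lamp3 differed by -1.52, -0.80 and -0.78. Of 8 type I cell markers, the thin lining cells that arise from ATII cells, 6 fell and 0 rose in limma (8 lower and 0 higher at an unadjusted p under 0.05), and their summed linear signal was 5587 to 9246 in AdHIF1a against 12618 to 17751 in AdGFP wells. Of 9 fibroblast markers 6 averaged below that median. Their summed signal was 262 to 276 in AdHIF1a and 272 to 292 in AdGFP wells. Of 4 airway markers 3 averaged below that median and 0 were called, but Scgb1a1 averaged 12.68 in AdHIF1a and 12.65 in AdGFP wells. Of 4 mesothelial markers 1 averaged below it and 1 was called lower, with Msln, not called, at 8.955 in AdHIF1a and 9.29 in AdGFP wells. Of 3 smooth muscle markers 1 fell, Tagln by 2.35 ± 0.23, while Des (-0.65) and Myh11 (0.16) were not called. The summed signal of the 3, most of it Tagln, was 212 to 292 in AdHIF1a and 725 to 1429 in AdGFP wells. In RNA from a whole well, fewer cells of a type and less RNA per cell cannot be told apart.

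Plau, the urokinase gene, had log2 signals of 8.60, 8.83, 9.06 and 8.65 in the AdHIF1a wells of rats 1 to 4, against 10.10, 9.68, 10.27 and 10.02 in their AdGFP wells. All AdHIF1a wells lay below all AdGFP wells, and the highest AdHIF1a value and the lowest AdGFP value came from different rats. The difference was -1.23 ± 0.13 (SE, 4 rats; 95% interval -1.55 to -0.91, adjusted p = 0.00581), and it was negative in 4 of 4 rats. By size of difference it ranked 398 of 18166 genes. The fall was largest in rat 1 (-1.50) and smallest in rat 2 (-0.85). Plau was called in all 18 alternatives, with adjusted p from 0.000689 to 0.0416. Not all of these are separate fits: adjusted p under 0.01 and at least 1.5-fold only moved the cutoff on the main fit. The mean of probe sets left the Plau values as they were, since it has 1 probe set.

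Plat, the tissue plasminogen activator gene, had signals of 9.68, 8.86, 8.32 and 9.18 in the AdHIF1a wells of rats 1 to 4, against 9.70, 9.29, 7.27 and 9.58 in their AdGFP wells. The groups overlapped, and the AdGFP well of rat 3 lay far below the other AdGFP wells. The mean difference was 0.05 ± 0.27 (adjusted p = 0.931), with an interval of -0.61 to 0.71 that includes changes of 1.5-fold either way. Within rats the differences were -0.02, -0.43, 1.05 and -0.40, so that rat 3 was the only rat above 0. Without rat 3 the difference was -0.28 (adjusted p = 0.304, range 0.304 to 0.968 over the alternatives).

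Plaur, the receptor that holds urokinase on the cell surface, had signals of 10.28, 10.47, 10.25 and 10.41 in AdHIF1a wells and 10.77, 10.52, 10.52 and 10.46 in AdGFP wells of rats 1 to 4. The groups overlapped by a single pair of wells, since rat 2 with AdHIF1a (10.47) was above rat 4 with AdGFP (10.46). The difference was -0.21 ± 0.11 (interval -0.49 to 0.06, adjusted p = 0.280), negative in 4 of 4 rats but only -0.05 in rats 2 and 4. A fall as large as that of Plau lies outside this interval.

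**Figure D1:**
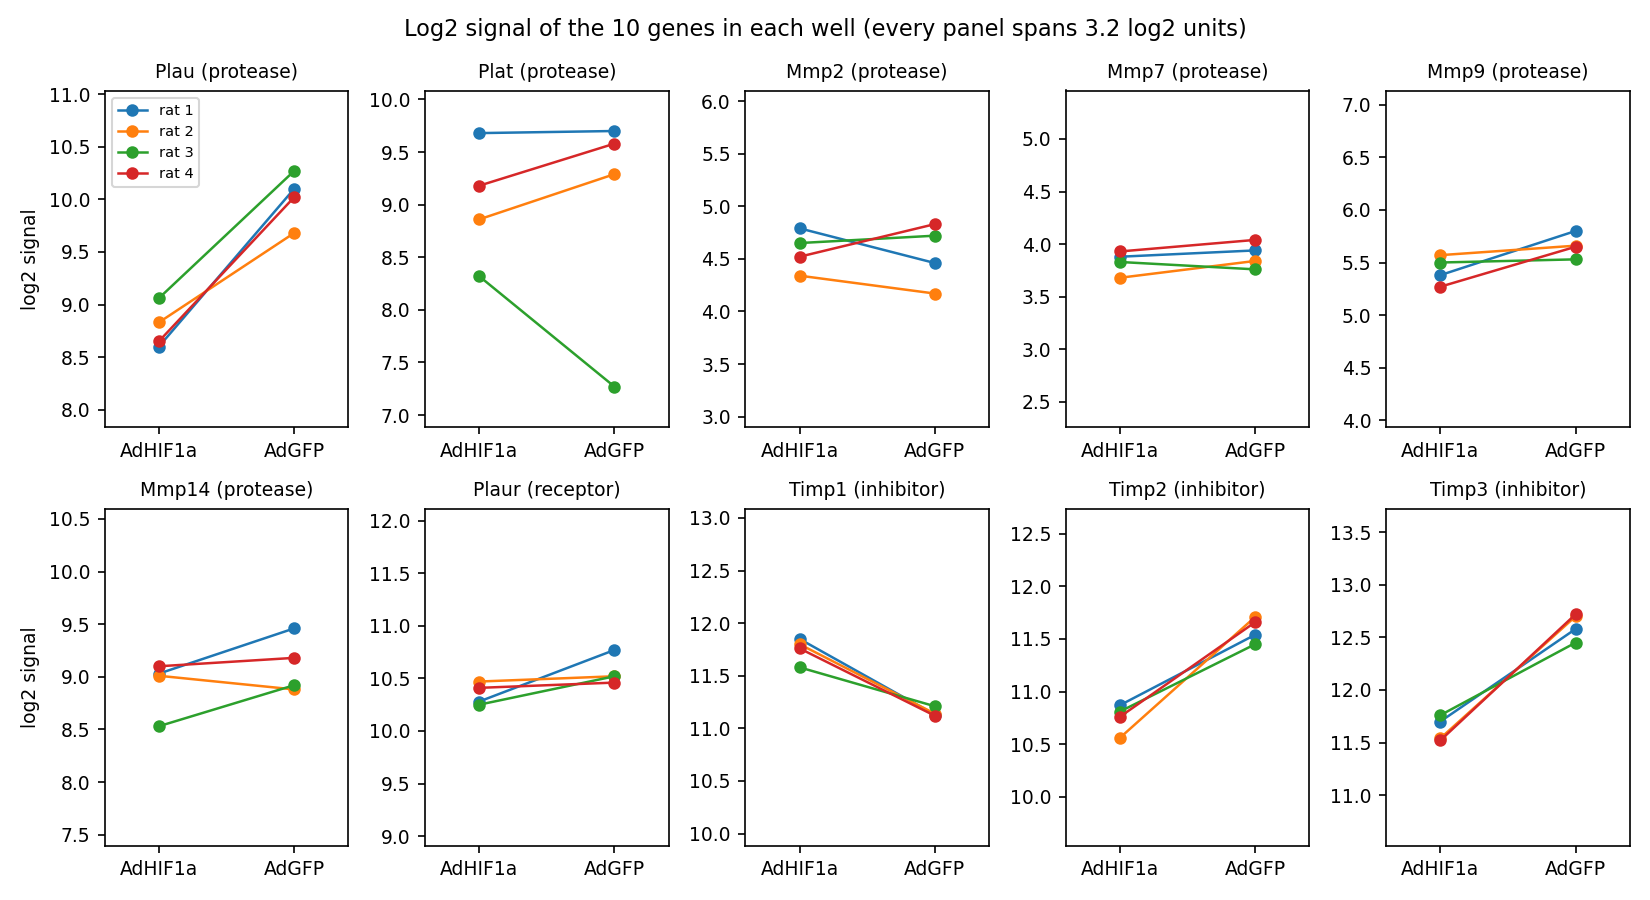
Log2 signal (vertical axis) of the 10 genes in the AdHIF1a well (left) and the AdGFP well (right) of each rat, with a line joining the wells of a rat and every panel covering the same span. All 4 lines of Plau, Timp2 and Timp3 run to lower AdHIF1a values and all 4 of Timp1 to higher ones, while the lines of Plat part at rat 3 (8.32 with AdHIF1a and 7.27 with AdGFP).

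None of the 4 MMP members was called in limma, nor had any an unadjusted p under 0.05. Mmp14, a membrane-anchored MMP that cleaves collagen and activates the Mmp2 precursor, had signals of 9.03, 9.01, 8.53 and 9.10 in AdHIF1a wells and 9.46, 8.88, 8.92 and 9.18 in AdGFP wells of rats 1 to 4. The groups overlapped, and the difference was -0.19 ± 0.12 (interval -0.50 to 0.12, adjusted p = 0.394), with rat 2 on the other side of 0 (0.13). Mmp9, the gelatinase made by many leukocytes and by injured epithelium, had 5.38, 5.57, 5.50 and 5.27 in AdHIF1a wells and 5.80, 5.66, 5.53 and 5.65 in AdGFP wells. Only the AdHIF1a well of rat 2 reached into the AdGFP range. Its difference of -0.23 ± 0.11 (interval -0.50 to 0.04, adjusted p = 0.237) was negative in 4 of 4 rats.

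Mmp2, the other gelatinase, which is typical of mesenchymal cells, had a low signal of 4.34 to 4.79 in AdHIF1a wells and 4.17 to 4.83 in AdGFP wells. Mmp7, matrilysin, an epithelial MMP that processes cell-surface proteins, had 3.68 to 3.93 in AdHIF1a wells and 3.76 to 4.04 in AdGFP wells. Both lay below the median of all probe sets, where a change in RNA gives a compressed difference, and the files hold no detection calls. The differences were 0.03 ± 0.13 for Mmp2 (adjusted p = 0.914) and -0.07 ± 0.09 for Mmp7 (adjusted p = 0.694).

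The inhibitors went both ways. Timp1, a secreted TIMP induced in many injured tissues, had signals of 11.85, 11.80, 11.58 and 11.76 in the AdHIF1a wells of rats 1 to 4, against 11.13, 11.14, 11.21 and 11.12 in their AdGFP wells. All AdHIF1a wells lay above all AdGFP wells, and the AdGFP wells of the 4 rats were within 0.1 log2 units of each other (SD 0.041). The rise was 0.60 ± 0.10 (interval 0.36 to 0.84, adjusted p = 0.0171), and 0.72, 0.66, 0.37 and 0.64 in rats 1 to 4. Timp1 was not called in the fits that left out rat 2 (adjusted p = 0.0963) or rat 4 (0.0943) or when each array was centred on its median (0.0514), with 0.00159 to 0.0963 over all alternatives and a difference of 0.51 or more in each.

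Timp2, a secreted TIMP that also takes part in activation of Mmp2 by Mmp14, had signals of 10.87, 10.56, 10.81 and 10.76 in AdHIF1a wells and 11.54, 11.71, 11.45 and 11.66 in AdGFP wells of rats 1 to 4. The groups were apart by more than the spread of either. The fall was by 0.84 ± 0.12 (difference -0.84, interval -1.13 to -0.55, adjusted p = 0.0116), in 4 of 4 rats. Leaving out rat 2 or rat 4 ended the call (adjusted p = 0.0572 and 0.0703), with 0.000694 to 0.0703 over all alternatives.

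Timp3, the TIMP that binds to extracellular matrix and also inhibits ADAM proteases, had signals of 11.70, 11.54, 11.76 and 11.52 in AdHIF1a wells and 12.58, 12.70, 12.45 and 12.72 in AdGFP wells of rats 1 to 4. The AdHIF1a wells were again all below the AdGFP wells. The difference was -0.98 ± 0.12 (interval -1.28 to -0.69, adjusted p = 0.00797), and it ranged from -1.20 in rat 4 to -0.69 in rat 3. Without rat 2 the adjusted p was 0.0522, the highest of the alternatives, which began at 0.000317. In both Timp2 and Timp3 the falls of rats 2 and 4 were larger than those of rats 1 and 3, and the type I markers had medians of -1.46 and -1.68 in rats 2 and 4 against -0.81 and -0.70 in rats 1 and 3. Among the smooth muscle markers only Tagln was called lower, with differences of -2.29, -2.80, -1.54 and -2.78 in rats 1 to 4. Des (-0.65) was not called, and Myh11 lay on the other side of 0 (0.16). The part of either list in the falls of Timp2 and Timp3 was not tested.

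**Figure D2:**
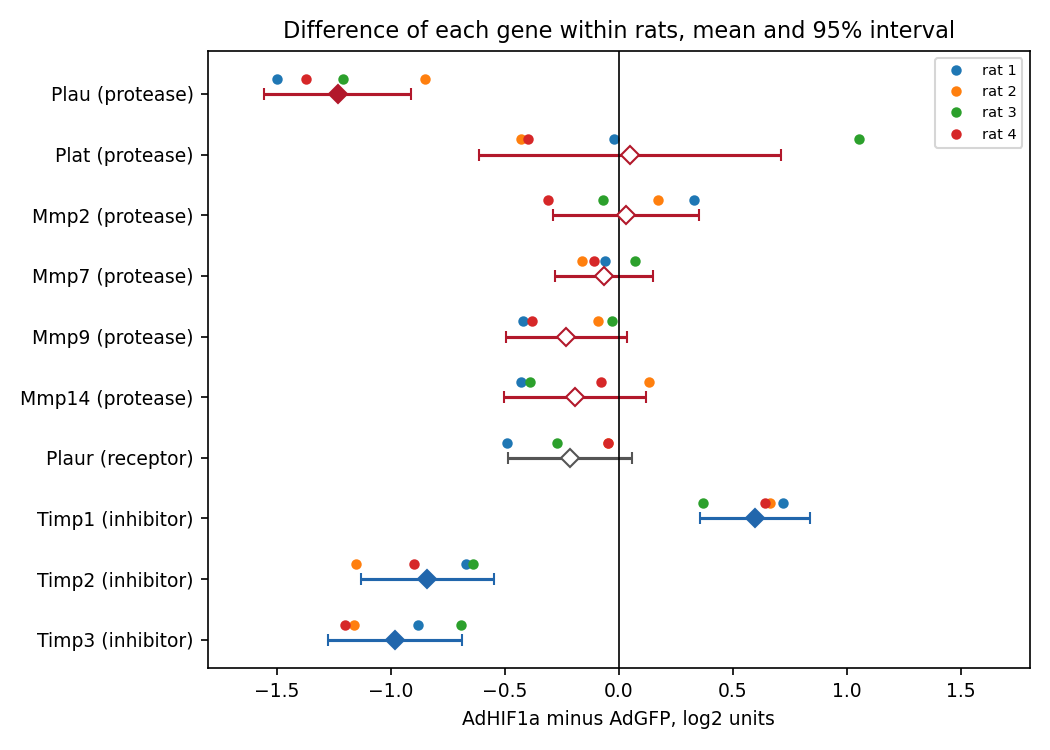
Difference AdHIF1a minus AdGFP (horizontal axis, log2 units) of each gene, with the mean of 4 rats as a diamond, its 95% interval as a bar and each rat as a point above it; filled diamonds are called genes and colours give the role. The intervals of Plau, Timp2 and Timp3 lie wholly below 0, that of Timp1 wholly above 0, and those of the other 6 genes cross 0.

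Proteases were then set against inhibitors by the change of each, since signals of different probe sets cannot be compared as levels. Plau and Plat are plasminogen activators and not MMPs, the enzymes that TIMPs hold in check. The comparison thus does not pair every protease with its own inhibitor. The median difference was -0.13 over the 6 proteases and -0.84 over the 3 TIMPs, so that the proteases lay 0.71 log2 units above the inhibitors. This gap was 0.43 in rat 1, 1.02 in rat 2, 0.59 in rat 3 and 0.55 in rat 4. With 3 inhibitors the median is the value of a single gene, and the inhibitors themselves differed in direction, so the pairs were also taken apart.

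Relative to Timp1, every protease had a lower mean change, by -0.55 for Plat to -1.83 for Plau, and 5 of 6 were lower in 4 of 4 rats, with Plat lower in 3. Relative to Timp2, the 5 proteases other than Plau had a higher change in 4 of 4 rats, with means of 0.61 to 0.89. Relative to Timp3, the same 5 were higher in 4 of 4 rats, with means of 0.75 to 1.03. Plau was the exception, with means of -0.39 against Timp2 and -0.25 against Timp3, and lower in 3 of 4 rats. The sign of the comparison thus depended on which TIMP was taken. These are relative changes of RNA, and neither protein nor enzyme activity was measured.

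**Figure D3:**
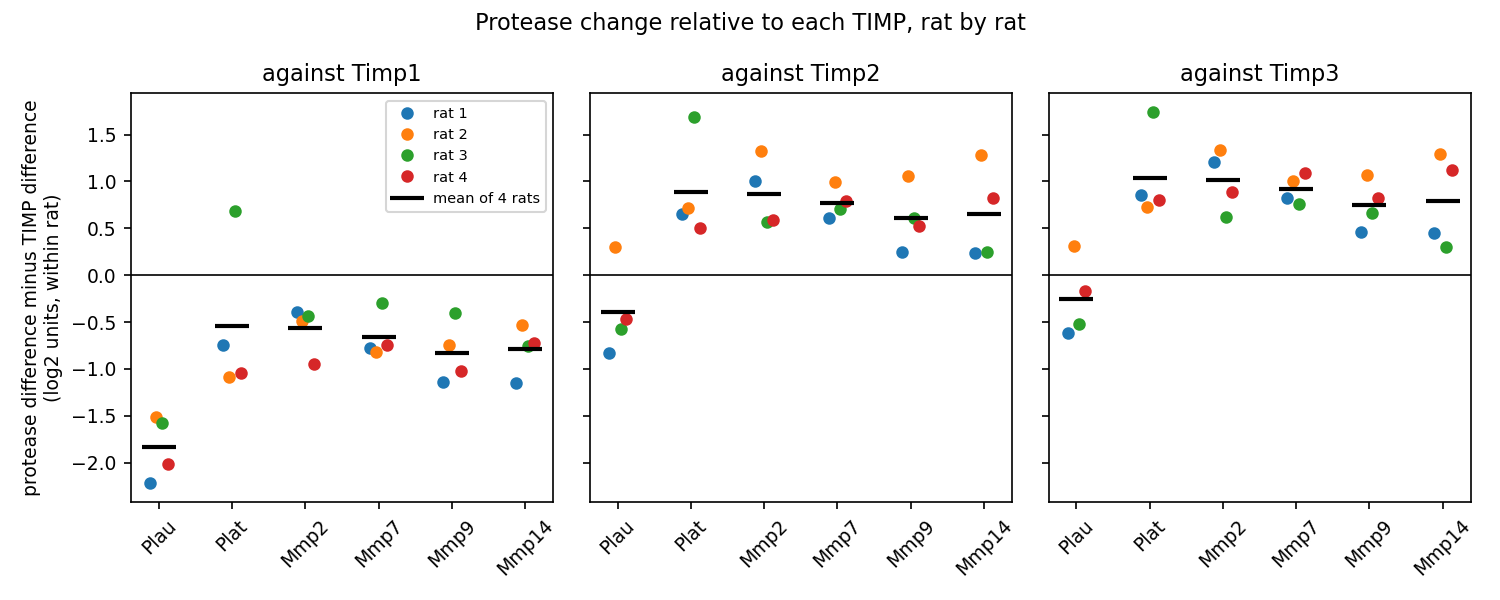
Change of each protease minus the change of Timp1, Timp2 or Timp3 in the same rat (vertical axis, log2 units), with rats as points and the mean of 4 rats as a black bar. Values lie mostly below 0 against Timp1 and, for all proteases but Plau, above 0 against Timp2 and Timp3; Plau against Timp1 is the lowest (-1.83).

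Other genes of matrix proteolysis were taken from 6 lists with 130 entries, of which 113 were measured. Of these, 8 were higher (7.08%, against 5.68% of all genes) and 23 lower (20.4%, against 7.77%), and 82 did not pass. Their median difference was -0.05. The counts rested on all rats: 22 of the 31 calls were lost without rat 2, 19 without rat 4, 15 without rat 3 and 6 without rat 1. In all of these fits 9 held. Calls over the whole array shrank too, from 1032 higher and 1411 lower genes in the main fit. Omitting rat 2 left 315 higher and 246 lower genes, and omitting rat 4 left 324 and 301. Omission of rat 3 left 517 and 600, that of rat 1 775 and 1231. Such losses were thus not particular to the listed genes.

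In the rest of the plasminogen system 1 of 22 measured genes rose and 4 fell (median -0.05). Plg, plasminogen itself, had signals of 4.36 to 4.68 in AdHIF1a wells and 4.37 to 4.65 in AdGFP wells, below the median of all probe sets, and differed by -0.05 ± 0.12 (adjusted p = 0.847). Vldlr, a lipoprotein receptor, had 11.63, 11.46, 11.27 and 11.60 in AdHIF1a wells, against 9.10, 8.43, 8.43 and 8.68 in AdGFP wells. It rose by 2.83 ± 0.11 (7.11-fold, adjusted p = 0.000592) and was called whichever rat was left out. Mrc2, a collagen receptor that associates with Plaur, fell (-1.21 ± 0.16), as did Serpine2, a serpin inhibitor of urokinase and thrombin (-1.06 ± 0.23). Plgrkt, a plasminogen receptor, and S100a10, which binds plasminogen at the cell surface together with annexin A2, also fell (-0.52 ± 0.08 and -0.57 ± 0.11). Each of these 4 calls was lost without rat 2, that of Mrc2 also without rat 4, that of Serpine2 without rats 1 and 3, that of Plgrkt without rats 3 and 4, and that of S100a10 whichever rat was left out.

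Among 16 other MMP genes 2 rose and 3 fell (median 0.00). Mmp13, a collagenase, had 5.69, 6.19, 5.95 and 6.13 in AdHIF1a wells, against a dim 4.15, 4.44, 4.38 and 4.17 in AdGFP wells, a rise of 1.70 ± 0.11 (adjusted p = 0.00167). Its AdGFP signals lay below the median of all probe sets, so that the 3.26-fold size is not exact. Mmp12, the macrophage elastase, had 7.85, 8.44, 8.31 and 7.72 in AdHIF1a wells, against 7.06, 5.72, 6.49 and 5.52 in AdGFP wells, and rose by 1.88 ± 0.31 (adjusted p = 0.0181). All AdHIF1a wells were above all AdGFP wells, but the AdGFP wells were spread widely and the call was lost without rat 2, 3 or 4 (adjusted p = 0.0680, 0.0739 and 0.0955; 0.0130 without rat 1).

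Of 12 macrophage markers 0 were higher and 1 lower in limma (1 and 3 at an unadjusted p under 0.05), and their summed signal was 8620 to 10421 in AdHIF1a and 7317 to 8849 in AdGFP wells, most of it Lyz2, a gene that ATII cells also express. Of the 12, 4 averaged below the median of all probe sets, among them C1qb and C1qc, while others were well above it, with Cd68 at 8.93 in AdHIF1a and 8.91 in AdGFP wells and Msr1 at 9.11 in AdHIF1a and 9.27 in AdGFP wells. The means of Cd68 and Msr1 hid a split by rat. In rats 1 to 4 Cd68 differed by -0.91, 0.32, 0.30 and 0.38, and Msr1 by -1.14, 0.02, 0.36 and 0.12. Mrc1 differed by -1.14, -1.36, -0.21 and -0.57, and the median of all 12 markers by -0.255, 0.01, -0.04 and 0.05. Mmp12 differed by 0.79, 2.72, 1.82 and 2.20 in the same rats. The part of macrophages in the Mmp12 rise was not tested.

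The 3 lower MMP genes were Mmp11, Mmp28 and Mmp15. Mmp11, stromelysin 3, had 7.11, 6.83, 6.74 and 6.56 in AdHIF1a wells, against 8.73, 8.98, 8.24 and 8.92 in AdGFP wells (-1.91 ± 0.17, adjusted p = 0.00406). Mmp28, epilysin, fell by 1.32 ± 0.15 and Mmp15, a membrane-anchored relative of Mmp14, by 0.98 ± 0.13. Mmp11, Mmp13 and Mmp28 were called in each fit without 1 rat, and Mmp15 was not called without rat 2 or rat 4.

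Among 23 ADAM and ADAMTS genes, metalloproteases related to the MMPs, 1 rose and 4 fell (median -0.06). Adam12 rose by 0.95 ± 0.13, and its call was lost without rat 2 or rat 3. Adam19 fell by 1.38 ± 0.15 and was called whichever rat was left out. Adamtsl4, Adamts7 and Adam9 fell by 1.01 ± 0.13, 0.72 ± 0.10 and 0.58 ± 0.08, and each lost its call without rat 2 and without 1 other rat.

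Of 18 further inhibitors 2 rose and 3 fell (median -0.10). Slpi, a secreted inhibitor of neutrophil elastase, had 9.13, 9.14, 8.62 and 9.14 in AdHIF1a wells, against 6.70, 6.31, 6.22 and 5.56 in AdGFP wells, and rose by 2.81 ± 0.22 (7.01-fold, adjusted p = 0.00293). Reck, a membrane-bound inhibitor of several MMPs, had 7.70, 7.63, 7.40 and 7.56 in AdHIF1a wells, against 6.38, 6.49, 6.64 and 6.43 in AdGFP wells, and rose by 1.09 ± 0.12 (2.13-fold, adjusted p = 0.00620). Both were called in each fit without 1 rat. Serpinb9, an inhibitor of granzyme B, Serpinb1a, an inhibitor of neutrophil proteases, and Wfdc2 fell by 0.68 ± 0.10, 0.67 ± 0.09 and 0.42 ± 0.09, and none of these 3 was called without rat 2 or rat 4. Serpinb9 was also not called without rat 3, and Wfdc2 was not called whichever rat was left out or after median centring (adjusted p = 0.0638). Serpinb9 differed between rats by more than between viruses, with groups that overlapped, and was not called without the rat as a block (adjusted p = 0.110).

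Activators and cell-surface proteases had 2 of 23 genes higher and 5 lower (median -0.04). Tmprss2, a transmembrane serine protease of epithelia, fell by 1.26 ± 0.10 and was called whichever rat was left out. F2r, the thrombin receptor, fell by 1.27 ± 0.18, Dpp4, a dipeptidyl peptidase, by 0.62 ± 0.11 and Prss8, an epithelial protease that activates sodium channels, by 0.51 ± 0.09. Bsg, known as an inducer of MMPs, rose by 0.43 ± 0.09 and Pcsk6, a proprotein convertase, by 0.55 ± 0.11, and neither was called after median centring (adjusted p = 0.0995 and 0.0990). The calls of F2r, Dpp4, Prss8, Bsg and Pcsk6 were each lost without rat 2 and without rat 4. Those of Dpp4, Prss8 and Bsg were also lost without rat 3, and that of Pcsk6 whichever rat was left out.

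**Figure D4:**
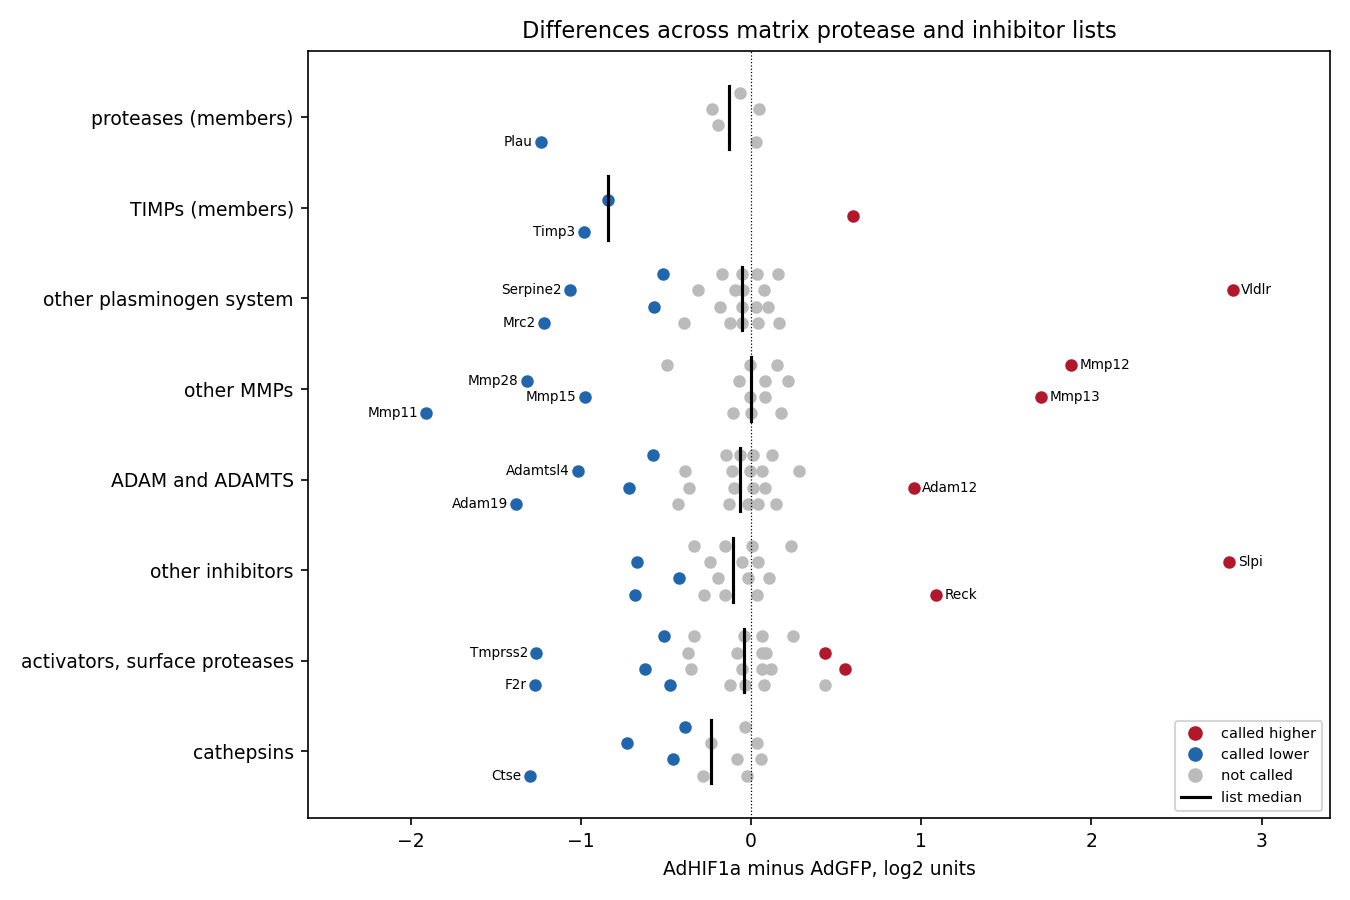
Difference AdHIF1a minus AdGFP (horizontal axis, log2 units) of each measured gene in the protease and inhibitor lists, with 1 point a gene, colour for the call and a black bar for the list median; heights within a list only separate points. List medians lie between -0.23 and 0.00 except for the TIMPs (-0.84), and Vldlr (2.83) and Slpi (2.81) stand farthest to the right.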

How the data were processed

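Per the submitters' processing notes, the authors made the deposited log2 signals, 1 value for each of 36685 probe sets on each of 8 arrays, with Affymetrix Expression Console; the sources used here do not give its algorithm or version. That the scale is log2 was inferred from the range of values. Array medians ran from 5.00 to 5.20 and no further scaling was applied. Names came from the platform annotation (18511 with 1 symbol, 575 with several and 17599 with none of the probe sets), and the probe set of highest mean stood for each of 18166 genes. Limma 3.58.1 in R 4.3.3 (lmFit, eBayes) was fitted to all probe sets with rat as fixed block; p was adjusted by Benjamini-Hochberg over the genes; the procedure was tested on simulated data. The pairing comes from the series' design; deviations of same-rat wells correlated across genes at 0.18 to 0.26, and those of other wells at -0.22 to 0.08. Members and lists were chosen with earlier results of these data known. Named genes were all 10 members, up to 4 called genes a list and direction by adjusted p, and Plg; for Plau and Timp3 also the 3 genes of most alike profile. Promoter letters come from RefSeq (GRCr8). No depth applies to arrays, whose number limits the precision. Alternatives were no block, a random block, quantile normalization, median centring, filters on dim probe sets, array weights, a trended prior, mean of probe sets, all probe sets tested, adjusted p under 0.01, at least 1.5-fold and omission of each rat; genes only in the fit and omission of control probe sets were added after seeing the data.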

Additional observations from a re-analysis of the deposited data

Results flagged for a closer look

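Among 20 groups of 4 wells (10 genes, both viruses) and 10 sets of within-rat differences, 2 groups had a well far from the other 3, where chance gives about 1 in 20. For Plat the AdGFP well of rat 3 (7.27) stood apart from the others (9.29 to 9.70), with a gap of 0.831 of the group's range. For Mmp14 the AdHIF1a well of rat 3 (8.53) stood below the others (9.01 to 9.10), with a gap of 0.842 of the range. Both wells came from rat 3, and neither gene was called with or without that rat.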

How the results depend on the processing

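Plau was called in all 18 alternatives and Plat, Mmp2, Mmp7, Mmp9, Mmp14 and Plaur in none of those run on them. Without the rat as a block, 1 member was higher and 3 lower, as with it, and 1279 genes in all were higher and 1672 lower; the block changed no call of a member. Median centring left 635 higher genes in all and 0 higher members. An adjusted p under 0.01 left 349 higher and 307 lower genes, 0 higher members, and 4 higher and 7 lower genes of the wider lists. At least 1.5-fold left 656 higher and 924 lower genes and 15 lower of the wider lists. With genes only in the fit 1576 genes were higher and 2098 lower. Leaving out 1 rat gave 315 to 775 higher and 246 to 1231 lower genes, 0 to 1 higher and 1 to 3 lower members, and 4 to 7 higher and 5 to 18 lower genes of the wider lists. The gap between proteases and inhibitors was 0.58 to 0.81 without 1 rat; the filter at the median removed Mmp2 and Mmp7, so the gap over 6 proteases was not computed there. The uncalled difference of Mmp2 turned to -0.0302 with quantile normalization, -0.0525 with median centring and -0.00425 with array weights, and ran from -0.07 to 0.14 when 1 rat was left out; that of Plat turned to -0.0325 with median centring and -0.0375 with array weights, and ran from -0.28 (without rat 3) to 0.21. Median centring and quantile normalization moved the median of all genes to -0.09 and -0.04. The causes were not tested. Dim signals limit Mmp2, Mmp7, Plg and Mmp13. Signals close to the median of all probe sets (5.09) were also seen in AdHIF1a wells for Adamts7 (5.04 to 5.32) and Mmp28 (5.37 to 5.47). Mmp9 ran from 5.27 to 5.80 over both groups.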

Other observations

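The 11 measured cathepsin and legumain genes are mostly of lysosomal proteases that can also act on matrix outside cells. Of these, 0 were higher and 4 lower in the AdHIF1a wells in limma, against 5.68% and 7.77% of all genes. At an unadjusted p under 0.05 there were 0 and 5. Their median difference was -0.23, beside -0.005 over all genes. This list, like the others, was chosen with earlier results of these data known. Ctse, an aspartic protease, had 6.60, 6.70, 6.78 and 6.47 in AdHIF1a wells, against 7.99, 7.88, 7.96 and 7.91 in AdGFP wells of rats 1 to 4, and fell by 1.30 ± 0.09 (limma adjusted p = 0.00248). Ctsc, which activates leukocyte serine proteases, fell by 0.73 ± 0.09, Ctsh, which takes part in surfactant protein processing, by 0.46 ± 0.09, and Lgmn, legumain, by 0.39 ± 0.08. Only Ctse of these 4 was called in each fit without 1 rat, and Lgmn was called in none of them, nor after median centring (adjusted p = 0.0522).

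The 3 genes whose profile over the 8 arrays was closest to that of Plau were Prnd, Gpr39 and Cmahp, at root mean square distances of 0.13 log2 units each after centring each gene on its own mean. Those closest to Timp3 were Sema3c (0.05), a secreted semaphorin, Nectin3 (0.06), a cell adhesion protein, and Slc36a4 (0.07), an amino acid transporter. The arrays and rats are shared by all of these profiles.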
